A study of Mus musculus with 2 samples.

Results

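Among the lung ECs sorted for PECAM1, 1261 of 13035 met a rule on 5 transcripts, Mal, Tubb2b, Epha4, Sema3c and Wfdc1. A cell was counted when at least 3 of the 5 were detected, together with at most 2 of 6 artery transcripts (Gja5, Bmx, Fbln5, Olfm2, Sulf1 and Stk32a) and at most 1 of 3 aerocyte transcripts (Ednrb, Fibin and Tbx2). The cells were first limited to barcodes with between 1000 and 5000 genes, with less than 20% of their unique molecular identifiers (UMIs) from mitochondrial genes, with at least 2 of Pecam1, Cdh5, Cldn5 and Egfl7 detected and 0 UMIs of Ptprc, which are called gated ECs here. It gave 562 of 6878 gated ECs in the control library and 699 of 6157 in the metastatic library, out of 7134 and 6466 barcodes past the limits on genes and mitochondrial UMIs. The mice were wild-type C57BL/6, males of the JRj substrain by the methods of the study. The control mice received phosphate-buffered saline through the tail vein, and the other mice 200000 cells of the mouse melanoma line B16-F10 in 100 µl, and all lungs were taken after 6 h. Each group was 1 library that pooled the cells of 2 mice, so a difference between the libraries had no replicate check and no test between them could be run. The cells were sorted for PECAM1 with no gate on PTPRC, and where a sorted cell had lain in the vessel was not recorded.

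These cells had been put forward as capillary ECs on the artery side, and the data matched that name only in part. Sox17, Gja4 and Cxcl12, arterial genes outside the rule, stood higher in them than in general capillary (gCap)-like ECs in both libraries. Dll4, Hey1 and Notch1, a ligand, a target and a receptor of Notch signaling, stood lower in both libraries. The cells are therefore called Epha4/Wfdc1 capillary ECs, after the rule markers that set most of them apart.

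Blood reaches the alveolar capillaries from the pulmonary arterioles and leaves them through venules. The capillary bed of the mouse lung is built of aerocytes (aCap), thin ECs at the gas exchange surface, and of gCap ECs, which carry the stem cell factor receptor Kit and the lipase anchor Gpihbp1 and can divide after injury. Arterial identity is set by VEGF and Notch signaling together with SOX family transcription factors, and its known products include ephrin-B2, gap junction connexins and the chemokine CXCL12. EPHA4 is an ephrin receptor, SEMA3C a secreted semaphorin, MAL a membrane proteolipid of vesicle traffic, TUBB2B a beta-tubulin and WFDC1 a secreted protein with a protease inhibitor fold.

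The promoters of rule markers are shown because the members were chosen by joint detection of these transcripts. Those of arterial genes outside the rule that stood higher along with them are shown beside them. Of 10 genes looked up in the RefSeq promoter table (build GRCm38.p6, 250 bases before to 50 bases after the start), 5 were matched, namely Mal, Epha4, Sema3c, Gja4 and Cxcl12. Capitals mark every match, on either strand, to ACAAT (reverse ATTGT), the core letters bound by SOX factors, or to TGGGAA (reverse TTCCCA), the core letters of RBPJ, the DNA-binding partner of Notch. The SOX letters occur in 31.0% and the RBPJ letters in 25.6% of the 32851 RefSeq promoters of the same 300 bases, so a match is a description of the letters and not a site. The Mal (chr2:127656646-127656945, minus strand) and Sema3c (chr5:17574566-17574865, plus strand) windows held neither, and the Epha4 window (chr1:77515039-77515338, minus strand) held 1 match to the RBPJ letters. The Gja4 window (chr4:127313990-127314289, minus strand) held 1 match to the SOX letters, and the Cxcl12 window (chr6:117168285-117168584, plus strand) held 1 match to each.
Mal: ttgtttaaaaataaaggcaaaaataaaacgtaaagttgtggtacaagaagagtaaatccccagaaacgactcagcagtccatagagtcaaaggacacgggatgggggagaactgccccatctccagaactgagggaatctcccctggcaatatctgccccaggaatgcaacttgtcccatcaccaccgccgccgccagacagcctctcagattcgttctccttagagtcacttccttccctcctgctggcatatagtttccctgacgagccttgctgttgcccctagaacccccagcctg
Epha4: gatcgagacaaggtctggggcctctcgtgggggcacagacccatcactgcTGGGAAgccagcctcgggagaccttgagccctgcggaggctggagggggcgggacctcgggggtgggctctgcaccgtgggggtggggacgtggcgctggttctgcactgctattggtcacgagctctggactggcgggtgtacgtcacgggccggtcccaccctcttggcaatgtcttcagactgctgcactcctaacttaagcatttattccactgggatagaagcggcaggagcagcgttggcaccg
Sema3c: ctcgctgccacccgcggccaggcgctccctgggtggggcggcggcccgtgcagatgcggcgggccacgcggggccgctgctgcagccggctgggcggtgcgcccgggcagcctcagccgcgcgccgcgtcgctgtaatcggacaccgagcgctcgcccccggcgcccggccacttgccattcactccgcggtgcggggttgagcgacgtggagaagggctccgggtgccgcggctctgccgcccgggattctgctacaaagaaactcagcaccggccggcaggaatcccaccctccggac
Gja4: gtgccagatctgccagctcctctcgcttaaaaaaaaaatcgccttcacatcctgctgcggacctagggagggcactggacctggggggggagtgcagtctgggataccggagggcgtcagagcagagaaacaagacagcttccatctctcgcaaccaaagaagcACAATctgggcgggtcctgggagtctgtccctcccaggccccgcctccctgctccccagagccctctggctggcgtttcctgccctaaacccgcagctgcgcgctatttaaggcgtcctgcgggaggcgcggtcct
Cxcl12: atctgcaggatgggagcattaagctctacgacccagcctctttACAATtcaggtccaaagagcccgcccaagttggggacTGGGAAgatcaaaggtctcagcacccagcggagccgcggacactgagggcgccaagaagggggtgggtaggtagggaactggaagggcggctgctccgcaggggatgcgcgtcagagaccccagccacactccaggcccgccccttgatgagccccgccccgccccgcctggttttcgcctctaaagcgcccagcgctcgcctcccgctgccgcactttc

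In the GENCODE M21 annotation of GRCm38, the 5 rule markers lay on separate chromosomes, Mal at chr2:127633226-127656695, minus strand, Tubb2b at chr13:34126748-34130466, minus strand, Epha4 at chr1:77367185-77515088, minus strand, Sema3c at chr5:17574281-17730268, plus strand and Wfdc1 at chr8:119666365-119688222, plus strand. The genes outside the rule whose levels are described first below, Gja4, Sox17, Cxcl12, Slc6a6 and Cdk19, lay at chr4:127311421-127314039, minus strand, chr1:4490931-4497354, minus strand, chr6:117168535-117181367, plus strand, chr6:91684053-91759066, plus strand and chr10:40339564-40483818, plus strand, respectively.

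The libraries held 67929614 control and 64733724 metastatic UMIs over all barcodes, and the members 4373534 and 5629496 UMIs. The median member had 6864 UMIs in the control and 7308 in the metastatic library, above the 5420 and 5462 UMIs of gCap-like ECs (at most 1 of the 5 markers, and few artery, aCap, vein or lymphatic markers, 2913 and 2361 cells). Artery-like ECs, with at least 3 of the 6 artery markers, numbered 83 and 65. Of the barcodes past the limits, 16 occurred in both libraries, none of them a member. Levels are given in CPM, the UMIs of a gene over the summed UMIs of a class, scaled to 1000000, with the 95% interval of the count in parentheses. All intervals cover counting error only, not the spread between mice, and a summed level cannot tell fewer positive cells from less RNA per cell.

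The rule markers, whose values chose the members and are given as a description, were not alike. Sema3c was detected in all 562 control members and in 99.9% of the metastatic ones, but also in 81.5% and 78.6% of gCap-like ECs, so its presence sorted few cells. Epha4 was found in 80.1% and 85.1% of members and Wfdc1 in 83.6% and 86.0%. The summed level of Epha4 was 246 CPM in control and 217 CPM in metastatic members against 4.53 and 11.3 CPM in gCap-like ECs, which the rule keeps low. Tubb2b was found in 39.0% and 35.6% of members, and Mal only in 16.9% and 11.9%. The most frequent set was Epha4, Sema3c and Wfdc1 with neither Mal nor Tubb2b, which made up 272 control members (48.4%) and 393 metastatic members (56.2%). All 5 transcripts were detected in 12 and 14 members, 4 in 86 and 101, and exactly 3 in 464 and 584, so most members sat at the lower edge of the rule. Lymphoid cells, which should lack these genes, served as a gauge of free RNA. They carried Ptprc and lymphoid transcripts and at most 1 of Pecam1, Cdh5, Cldn5 and Egfl7. Lymphoid cells with more of these EC transcripts were thus left out beforehand, so the gauge may read too low. Of 41 control and 39 metastatic lymphoid cells, with medians of 4783 and 5057 UMIs, none had 3 of the 5 markers, which by the limit of 3 counts allows shares of up to 7.32% and 7.69% (upper Clopper-Pearson bounds 8.60% and 9.03%), and the only marker UMI among them was 1 of Sema3c.

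Just outside the rule, 1605 gated ECs of each library had exactly 2 markers and passed the artery and aCap limits, with medians of 6289 and 6700 UMIs against 6817.5 and 7210.5 in the members with exactly 3. Sox17 stood at 217 and 285 CPM in the cells just outside and at 304 and 379 CPM in the cells just inside, so the edge crossed a slope and not a gap. The artery limit removed few cells, since 5 control and 2 metastatic cells with 3 markers had 3 or more artery markers and passed the aCap limit. The aCap limit removed 67 and 74, whose median depth of 11281 and 12465 UMIs was above that of any class kept. Members with no artery marker at all numbered 488 and 584, and those with no aCap marker 421 and 543. Depth entered the rule through detection: with every cell thinned to 2000 UMIs, only 20.2% of control and 20.7% of metastatic members still showed 3 markers.

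The next comparison asked how arterial the members were, from genes outside the rule. A gene counted as past the fold when its level differed at least 2-fold in the same direction in both libraries. Genes passed the filter here when, in each library, they had at least 50 CPM in either class and at least 100 UMIs over both classes. Of 3596 genes compared with gCap-like ECs, 5 were past the fold upward (0.139%) and 2 downward (0.0556%), so the members differed from gCap-like ECs in few genes besides those of the rule. Asking for at least 4 markers gave 25 upward and 18 downward, so these counts depended on the rule. Because the cells were picked by their counts, the contrast is a description and carries no test. Sox17, an endothelial transcription factor of arteries, stood at 329 CPM (312–347) in the control library and 419.8 CPM (403–437) in the metastatic library, against 172 and 211 CPM in gCap-like ECs. Its log2 ratio to gCap-like ECs was 0.94 (0.84 to 1.03) in the control and 0.99 (0.91 to 1.07) in the metastatic library. Artery-like ECs held 104 and 118 CPM of Sox17, so the members were above both classes, and artery-like ECs were below gCap-like ECs. Gja4, the gap junction protein connexin 37, stood at 189 CPM (176–202) in the control library and 334 CPM (319–349) in the metastatic library, against 103 and 156 CPM in gCap-like and 98.8 and 195 CPM in artery-like ECs. Gja5 (connexin 40), the other connexin of arterial endothelium, is limited by the rule and so bears nothing on that question, and it gave 3 and 6 UMIs in all members, 0.686 and 1.07 CPM, against 98.8 and 53.5 CPM in the artery-like ECs that it helped to choose. Cxcl12, the chemokine that binds CXCR4, was graded, with 575 and 690.1 CPM in members between 307 and 369 CPM in gCap-like and 1258 and 1535 CPM in artery-like ECs. One control member held 231 of its 2516 UMIs. The Notch ligand Dll4 went the other way, at 57.4 and 78.7 CPM in members, 95.9 and 107 CPM in gCap-like and 178 and 193 CPM in artery-like ECs. The Notch target Hey1 was at 216 and 230.0 CPM against 322 and 295 CPM in gCap-like ECs, and the receptor Notch1 at 218 and 235 CPM against 289 and 254 CPM. Ephrin-B2 (Efnb2), an arterial surface ligand, was lower than in gCap-like ECs in the control library only, with log2 ratios of -0.28 and 0.01, and lower than in artery-like ECs in both, with -1.17 and -1.09. Over the whole list of 20 Notch and arterial identity genes, 14 passed the filter, none was past the fold, and the median log2 ratios were 0.01 and 0.26, beside a median of 0.02 over all genes in the metastatic library.

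Most genes of the walls of large arteries that passed the filter stood lower in members than in artery-like ECs. The choice of the classes favored this, since artery-like ECs were picked for the same artery markers that the rule limits in members. The difference is therefore a description and not a separate check of how arterial the members were. Against artery-like ECs, 104 of 3680 genes were past the fold downward (2.83%) and 167 upward (4.54%). Of 13 large artery genes, 9 passed the filter and 8 of these were past the fold downward, with median log2 ratios of -3.30 and -3.44. Matrix Gla protein (Mgp), an inhibitor of calcification in arterial walls, stood at 43.4 and 38.0 CPM in members and 1580.0 and 1842 CPM in artery-like ECs. The cation transporter Atp13a3 stood at 12.1 and 15.5 CPM against 337 and 412 CPM, and the adhesion receptor Adgrg6 at 15.5 and 15.1 CPM against 408 and 399 CPM. Ltbp4, which binds latent TGF-beta in elastic fibers, stood at 64.02 and 54.0 CPM against 673 and 619 CPM. Among the genes higher than in artery-like ECs were the sodium channel Scn7a, with log2 ratios of 3.49 and 3.58, the cell cycle regulator Rgcc (3.37 and 4.24), the carbonic anhydrase Car14 (3.21 and 2.96) and the transcription factor Sox11 (2.86 and 4.90). The artery-like sums were small, 83 and 65 cells, so genes low in that class rested on a handful of UMIs, 4 and 4 for Car14.

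The members were also set beside the remaining classes of the capillary bed and its outflow. Of 3837 genes compared with aCap-like ECs (at least 2 of the 3 aerocyte markers, 1373 control and 1084 metastatic cells), 109 were past the fold upward (2.84%) and 165 downward (4.3%). Aerocyte genes outside the rule lay within the fold of the gCap-like level, as did the carbonic anhydrase Car4 with 157 and 151 CPM in members, 159 and 139 CPM in gCap-like and 1411 and 1328 CPM in aCap-like ECs. Of 8 such genes, 4 passed the filter against gCap-like ECs and none was past the fold. The aCap limit shared by both classes favored this. Of 3668 genes compared with vein-like ECs (at least 3 of 6 vein markers, 454 and 459 cells), 43 were past the fold upward (1.17%) and 76 downward (2.07%). Of the 20 Notch and arterial identity genes, 14 passed the filter there and 6 were past the fold upward, with median log2 ratios of 0.64 and 0.93. Ephrin-B2 (Efnb2) had log2 ratios to vein-like ECs of 1.62 and 2.39, Gja4 1.60 and 1.91, Cxcl12 2.00 and 2.25, and Dll4 1.15 and 1.82. The venous adhesion molecule Vcam1 stood at 17.8 and 22.2 CPM against 479 and 514 CPM, and the platelet and endothelial selectin Selp gave 21 and 8 UMIs in all members. In number of genes past the fold the members were thus nearest to gCap-like ECs. The rule favored this order, since members and gCap-like ECs share the limits on artery and aCap markers. The artery-like, aCap-like and vein-like classes were chosen for markers of their own. The classes also differ in cells and so in the precision of their sums.

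The gCap genes of the members lay within the fold of their level in gCap-like ECs. Of 10 gCap genes, 9 passed the filter, with median log2 ratios to gCap-like ECs of 0.04 and 0.18 and none past the fold. Kit stood at 615 and 755 CPM in members and 603 and 667 CPM in gCap-like ECs, and the fatty acid receptor Cd36 at 1739.8 and 1668 CPM against 1614 and 1414 CPM. Lipoprotein lipase (Lpl), which releases fatty acids from circulating triglyceride, stood at 819.9 CPM (793–847) in the control library and 548 CPM (529–568) in the metastatic library, against 1475 and 1149 CPM in gCap-like ECs. Fabp4, the fatty acid carrier of ECs, was the lowest gene by the smaller of the 2 ratios, at 27.0 and 29.5 CPM against 165 and 371 CPM, with log2 ratios of -2.61 and -3.65, although 79 of its 118 control UMIs and 74 of its 166 metastatic UMIs in members came from 1 cell each. The other gene past the fold downward was the platelet gene Ppbp (-1.97 and -1.12). The phosphatidate phosphatase Lpin1 was lower as well, with log2 ratios of -0.99 and -1.54. Gpihbp1, which holds LPL at the vessel wall, differed less, with -0.35 and -0.41. Plvap, the diaphragm protein of fenestrae and caveolae, stood at 789.8 and 1077 CPM against 1526 and 1539 CPM, and the hyaluronan receptor Lyve1 had log2 ratios of -0.71 and -1.09. The remaining genes of the lower end were Spry1, an inhibitor of growth factor signaling (-0.95 and -1.57), the ubiquitin ligase Mylip (-0.92 and -0.95), the scavenger receptor Stab1 (-0.79 and -0.86), the transporter Slc16a9 (-0.85 and -0.96), Sparcl1 (-0.92 and -0.77), Ptpru (-0.76 and -0.94) and Ivns1abp (-1.19 and -0.87).

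**Figure D1:**
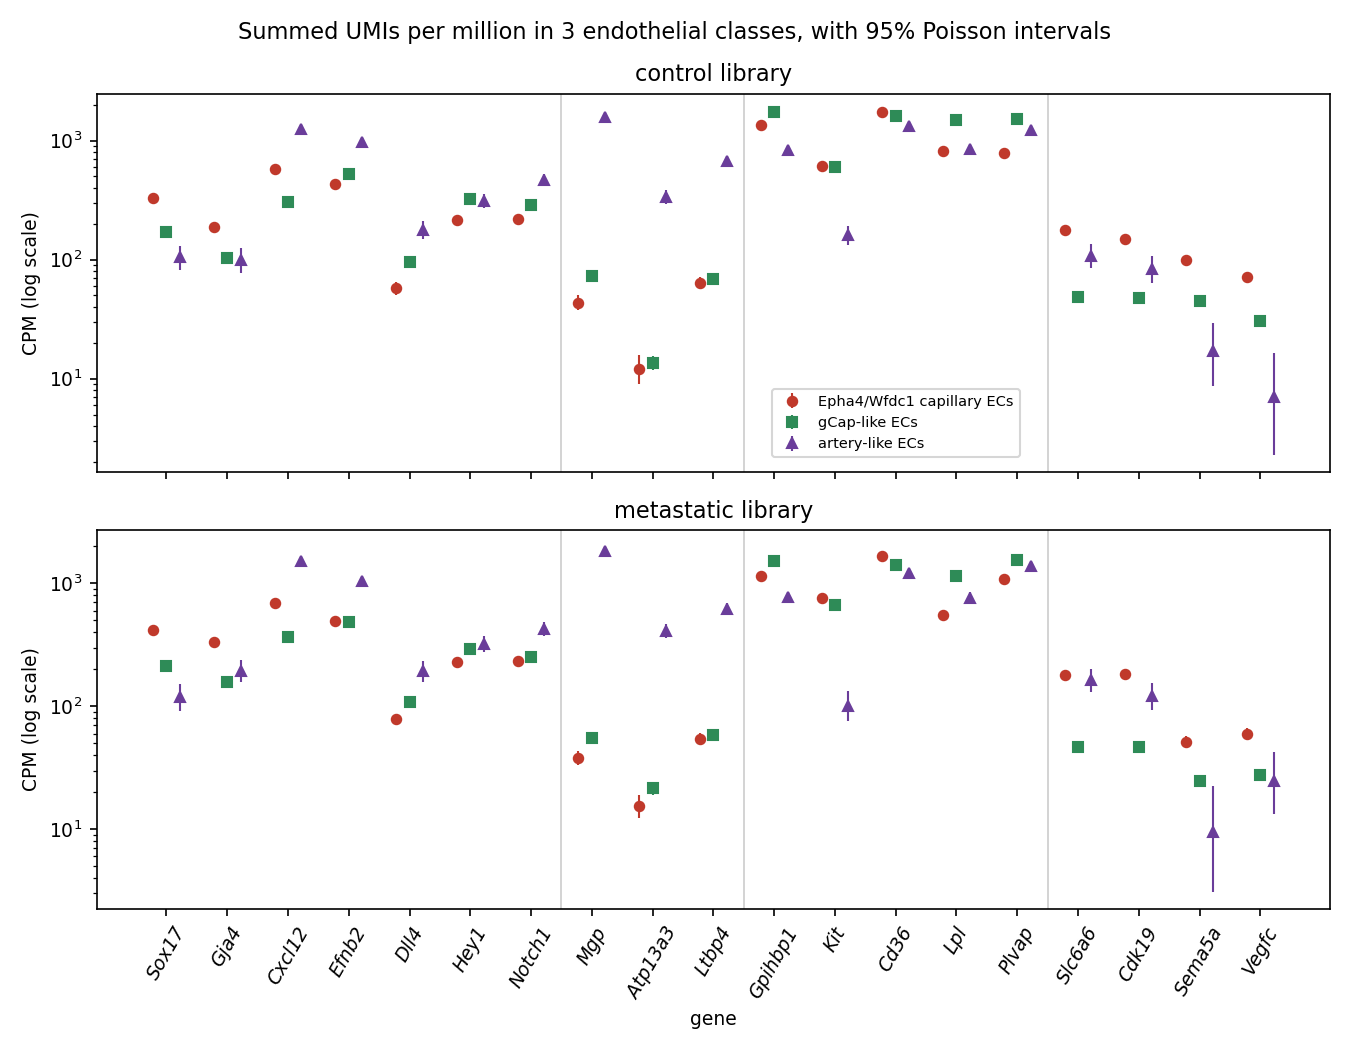
Summed level of 19 genes, on a log axis in CPM, in Epha4/Wfdc1 capillary ECs (circles), gCap-like ECs (squares) and artery-like ECs (triangles), with the control library above, the metastatic library below and 95% Poisson intervals as bars. From left to right the groups are arterial identity, large artery, gCap and the most member-biased genes: Sox17 stood above both other classes (329 and 419.8 CPM in members), Mgp near the gCap-like level (43.4 and 38.0 CPM) and Lpl below it (819.9 and 548 CPM).

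At the upper end of the comparison with gCap-like ECs stood a transporter, a kinase, a guidance cue and a growth factor. Slc6a6, the taurine transporter, was at 178 CPM (166–191) in the control library and 181 CPM (170.4–193) in the metastatic library, against 48.9 and 46.6 CPM in gCap-like ECs. Cdk19, a kinase of the Mediator complex, was at 149.5 and 182 CPM against 47.3 and 46.4 CPM, and artery-like ECs held 83.2 and 120.3 CPM. Vegfc, the ligand of VEGFR3, was at 71.1 and 59.5 CPM against 30.3 and 27.5 CPM. Semaphorin 5A (Sema5a), a cue with thrombospondin repeats, was at 98.5 and 51.2 CPM against 44.6 and 24.7 CPM, and the protease inhibitor Serpinb1a had log2 ratios of 1.04 and 1.07. These were the 5 genes past the fold. Below them by the smaller of the 2 ratios came Tubb2a (0.96 and 1.06), the polyamine enzyme Amd1 (0.91 and 1.07), Tcim (1.01 and 0.92) and Armcx4 (1.05 and 0.89). Tubb2a is a near copy of the rule marker Tubb2b, and reads shared by the 2 genes could have been assigned to either. Of 12 tubulins outside the rule, 5 passed the filter and none was past the fold, with median log2 ratios of 0.29 and 0.36, inside the range that held 95% of all genes (-0.40 to 0.43 and -0.46 to 0.45). Of 36 semaphorin, ephrin, plexin, neuropilin, Robo and Unc5 genes outside the rule, 14 passed the filter and Sema5a was the 1 past the fold, with list medians of -0.01 and 0.08. The sialomucin Emcn, a protein of capillary and venous ECs, was also higher, with log2 ratios of 0.80 and 0.88.

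Several of the genes described above differed by the number of rule markers detected, both inside and outside the rule. For this, ECs were split by 0, 1, 2, 3 and 4 or 5 markers, all under the artery, aCap, vein and lymphatic limits of the gCap-like class. Cells with 0 or 1 marker were the gCap-like ECs, and cells with 3 or more were members. The ends thus repeat the comparison above, and only the cells with 2 markers were not part of it. Gja4 stood at 62.1, 108, 139, 186 and 250.03 CPM in the control and at 100.5, 164, 222, 324 and 441 CPM in the metastatic library, in that order. Slc6a6 stood at 55.1, 48.1, 71.3, 143 and 374 CPM in the control library, so it was flat up to 1 marker and steep beyond 2. Sox17 ran from 105 to 449 CPM in the control and from 151 to 622 CPM in the metastatic library, with each step higher than the one before. Lpl ran the opposite way, from 1734 to 553 CPM and from 1309.7 to 325 CPM, with each step lower. Hey1 (395 to 169 CPM in the control library) and Dll4 (152 to 43.2 CPM) also went down from the first class to the last. Other genes did not go in steps. Cxcl12 stood at 335, 304, 384, 512 and 953 CPM in the control and 443, 358, 478, 669 and 946 CPM in the metastatic library, lowest with 1 marker in both, Tubb2a at 220.2, 171, 208, 303 and 569 CPM in the control library, and Fabp4 at 933, 67.9, 91.9, 5.34 and 5.08 CPM in the control library. Metastatic Vegfc was 30.5 CPM with 1 marker and 28.1 CPM with 2. The median depth of the cells moved along, from 4215 to 6997 UMIs in the control and from 4170.5 to 7755 UMIs in the metastatic library. With the markers counted in cells thinned to 2000 UMIs, the median depth was nearly level, from 5873 UMIs with no marker to 6338.5 with 3 in the control library, and Gja4 and Lpl kept their direction. Control Gja4 was then 83.4, 124, 165 and 229 CPM in cells with 0, 1, 2 and 3 markers, and control Lpl 1605, 1265, 1039.9 and 609 CPM.

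**Figure D2:**
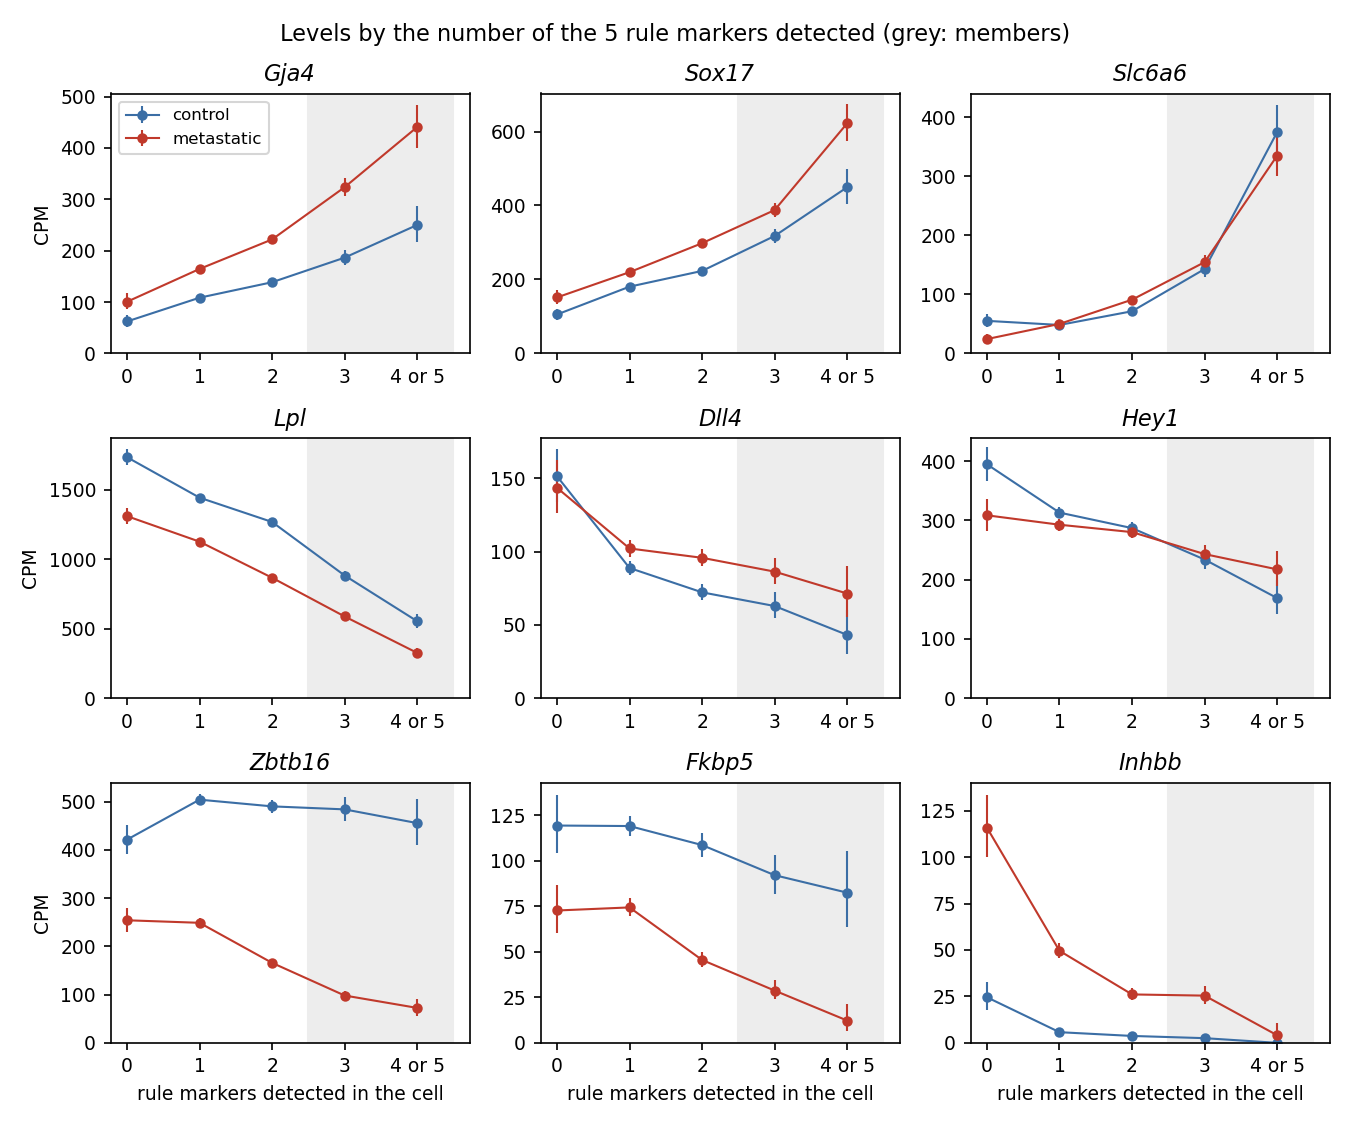
Summed level in CPM of 9 genes (vertical axes from 0) against the number of rule markers detected per cell (horizontal axes), in the control (blue) and metastatic (red) library with 95% Poisson intervals, the members shaded grey. Gja4 and Sox17 climb and Lpl, Dll4 and Hey1 go down with the number of markers, Slc6a6 climbs from 1 marker on, and Zbtb16 stays between 421 and 504 CPM in the control library and declines in the metastatic library (254 to 72.4 CPM).

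RNA of other cell types was present among the members and was unequal between the libraries. Epithelial transcripts (Sftpc, Sftpb, Ager, Scgb1a1 and Epcam, with Epcam at 0 in the metastatic members) summed to 4196 CPM in control and 114 CPM in metastatic members, and in 4 control members these genes held over 1% of the UMIs. Those 4 held 16880 of the 17243 Sftpc UMIs. Platelet transcripts were at 120.3 and 266 CPM, and red cell transcripts at 1943 and 1381 CPM. Of the UMIs of the globin gene Hba-a1, 1 control member held 1745 of 2211 and 1 metastatic member 1348 of 1847. Smooth muscle and pericyte (29.7 and 32.2 CPM) and fibroblast transcripts (7.77 and 10.1 CPM) were low. Melanoma transcripts stood at 1.37 and 0.888 CPM, with Tyrp1, Mlana and Tyr at 0 in the members of both libraries. Vein markers were concentrated: 34 control and 39 metastatic members carried at least 3 of 6, and these held 218 of 224 and 254 of 264 UMIs of the noradrenaline transporter Slc6a2.

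The share of gated ECs that met the rule was 8.17% (7.53–8.84, exact Clopper-Pearson interval) in the control and 11.4% (10.6–12.2) in the metastatic library, a ratio of 1.39 (1.25–1.54). These intervals did not overlap, but with 1 library per group the difference could not be set against the spread between mice. The ratio stayed between 1.36 and 1.41 with at least 300 or 1500 genes, a mitochondrial limit of 10%, doublets left out, or members with vein markers or cells with RNA of another cell type left out. It depended on which markers were asked for. With a marker taken out, at least 3 of the others were still asked for, so these rules were stricter. Without Epha4 in the rule the shares were 2.95% and 3.52%, a ratio of 1.19 (0.989–1.44), without Wfdc1 the ratio was 1.24 (1.02–1.502), and with at least 2 of the 5 markers the shares were 31.5% and 37.4%, a ratio of 1.19 (1.13–1.25). Epha4 itself was detected in 19.3% of control and 27.5% of metastatic gated ECs, with 51.8 and 70.9 CPM. The shares with Wfdc1 were 23.3% and 24.7%, with Tubb2b 6.14% and 7.02%, with Sema3c 84.8% and 85.3%, and with Mal 2.43% and 2.21%. In gCap-like ECs, which the rule keeps low in Epha4, it gave 74 control and 150 metastatic UMIs, 4.53 and 11.3 CPM. The part of Epha4 in the share was not tested beyond the rule without it. With each cell thinned to 2000 UMIs the shares were 1.79% and 2.47%, and their ratio of 1.38 (1.09–1.75) was close to that of the full counts.

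**Figure D3:**
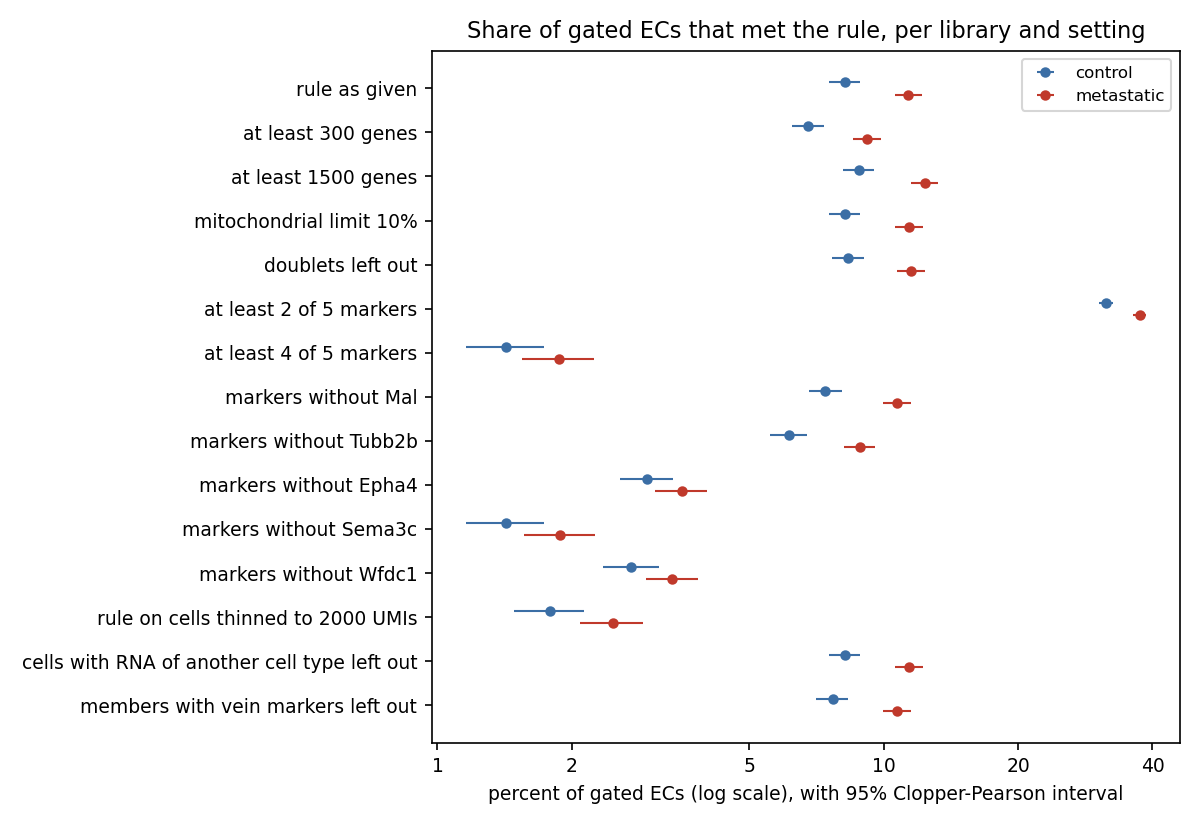
Percent of gated ECs that met the rule (horizontal log axis) in the control (blue) and metastatic (red) library, with 95% Clopper-Pearson intervals, for the rule as given and 14 other settings. The metastatic share was the higher one in every setting drawn, and the intervals overlapped without Epha4 (2.95% and 3.52%) and with at least 4 markers (1.42% and 1.87%), among others.

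The main comparison between the libraries asked which transcripts of the members differed 6 h after the melanoma cells. For it, the filter was at least 50 CPM in either library and at least 100 UMIs over both. Past the fold downward were 7 of the 10 glucocorticoid-responsive genes that passed the filter, and past the fold upward were 5 of 8 growth factor ligands, 4 of 8 interferon genes, 2 of 9 heat shock genes and 2 of 14 arterial genes. Of 3835 genes past the filter, 162 (4.22%) had a log2 ratio of at least 0.5 and 134 (3.49%) of at most -0.5, the folds used here for calling a gene past the fold. In artery-like ECs the same folds held 96 (4.22%) and 113 (4.97%) of 2274 genes, over few UMIs. In gCap-like ECs they held 103 (2.75%) and 53 (1.41%) of 3746 genes, in a class with more UMIs. The median over all genes of the members was 0.03, with 95% of them between -0.62 and 0.61. No p-value is given, since cells are not replicates.

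Glucocorticoids act through a nuclear receptor that switches on a well-known group of genes in many cell types. Of 13 such genes, 10 passed the filter in members, 7 of them were past the fold downward beside 3.49% of all genes, and the list median was -1.01. Zbtb16, a zinc finger repressor, stood at 468 CPM (448–488) in the control library and 96.6 CPM (88.7–105) in the metastatic library, which gives a log2 ratio of -2.27 (-2.41 to -2.14). In gCap-like ECs it stood at 495 and 249.6 CPM, a log2 ratio of -0.99 (-1.05 to -0.93). Between members and gCap-like ECs Zbtb16 thus differed little in the control library, with a log2 ratio of -0.08, and more in the metastatic library, with -1.37. Fkbp5, a co-chaperone that restrains the glucocorticoid receptor, stood at 96.7 CPM (87.7–106) in the control library and 29.7 CPM (25.3–34.5) in the metastatic library, which gives a log2 ratio of -1.71 (-1.97 to -1.44) against -0.68 in gCap-like ECs. Fam107a, an actin-associated stress protein, stood at 118 and 40.1 CPM (-1.56 against -0.86), and the clock repressor Per1 at 67.0 and 23.1 CPM (-1.54 against -0.73). Tsc22d3, the leucine zipper protein GILZ, stood at 262 and 130.0 CPM (-1.01), the factor Klf9 at 963 and 479.8 CPM (-1.01) and the cell cycle inhibitor Cdkn1a at 1756 and 985 CPM (-0.83). The phosphatase Dusp1 (0.19), the feedback inhibitor Errfi1 (-0.12) and the kinase Sgk1 (0.24) were not past the fold. In gCap-like ECs 7 of 12 genes of the list were past the fold downward, beside 1.41% of all genes, and 1 upward, beside 2.75%. The list median there was -0.58. The 1 upward was the metallothionein Mt1, at 26.6 and 140.1 CPM (2.40). In members Mt1, with 14.4 and 29.1 CPM (1.02), and Mt2, with 2.74 and 7.46 CPM (1.44), missed the filter and were the higher ones in the metastatic library, and the kinase Map3k6 (-1.40) missed it as well. All 7 genes that were past the fold in members had the larger change there. They were picked by their change in members, which favors this order, and the difference between the classes was not tested. Along the marker number, control Fkbp5 was 119, 119, 109, 92.1 and 82.5 CPM and metastatic Fkbp5 72.7, 74.4, 45.5, 28.7 and 12.2 CPM, so the metastatic to control ratio was lower with each class from 1 marker on.

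Some growth factor ligands, which act on neighboring cells, were past the fold upward in metastatic members. Of 13 growth factor ligands, 8 passed the filter and 5 were past the fold upward beside 4.22% of all genes, with a median of 0.75 against 0.53 in gCap-like ECs. With Sema3c taken out and 3 of the other markers still asked for, the median in members was 0.32. That is nearly the rule of at least 4 markers, with 98 control and 116 metastatic cells against 98 and 115. Hgf, the ligand of the MET receptor, stood at 23.3 CPM (19.0–28.3) in the control library and 56.3 CPM (50.3–62.9) in the metastatic library, which gives a log2 ratio of 1.27 (0.95 to 1.61). Vegfa, the main ligand of VEGFR2, stood at 189 and 346 CPM, a log2 ratio of 0.87 (0.76 to 0.99), and its receptor Kdr at 196 and 417 CPM, with 1.09 (0.98 to 1.21) against 0.49 in gCap-like ECs. Bmp4 stood at 34.5 and 66.6 CPM (0.95) and Pdgfb, which recruits pericytes, at 163 and 253 CPM (0.64). Hbegf, a ligand of the EGF receptor, was higher by less in members, with 49.4 and 89.2 CPM (0.85), than in gCap-like ECs, with 36.7 and 128 CPM (1.80). The other 3 past the filter were Tgfb1 (0.49), Bmp6 (0.36) and the KIT ligand Kitl (-0.10), and 5 missed the filter. Pdgfa, 1 of these 5 in members, stood at 27.9 and 42.8 CPM there and at 21.6 and 102 CPM in gCap-like ECs. Inhbb, a subunit of activins, gave 9 control and 113 metastatic UMIs, 2.06 and 20.1 CPM, also under the filter, and 21 of the metastatic UMIs came from 1 member. In the metastatic library Inhbb was lower the more markers a cell had, from 116 CPM in cells with no marker to 4.08 CPM in those with 4 or 5.

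Of the 20 Notch and arterial identity genes, 14 passed the filter, 2 were past the fold upward beside 4.22% of all genes, with a median of 0.22 in members and 0.04 in gCap-like ECs. Gja4 was 1 of them, with a log2 ratio of 0.82 (0.70 to 0.94) from the levels given above, and 0.60 in gCap-like ECs. The other was Nrp1, a co-receptor of VEGF and class 3 semaphorins, which stood at 344 and 535 CPM (0.64). Dll4 (0.46), Sox7 (0.37), Sox17 (0.35) and the BMP receptor Acvrl1 (0.35) were above 0 but short of the fold, and Hey1 (0.09) and Notch1 (0.11) lay near the median of all genes. Guidance genes went both ways, with 2 of 14 past the fold upward and 4 downward, beside 4.22% and 3.49% of all genes. Sema6d, a membrane semaphorin, stood at 77.3 and 149.9 CPM (0.96), whereas Sema7a, a membrane semaphorin anchored by lipid, stood at 187 and 88.3 CPM (-1.08) and Sema5a at 98.5 and 51.2 CPM (-0.95). The semaphorin receptor Plxna2 (-0.90) and the ephrin Efnb1 (-0.75) were also past the fold downward. Of the genes of flow and vascular tone, Edn1, the constrictor endothelin 1, stood at 262 and 390.1 CPM (0.58) and Ptgs1, the constitutive cyclooxygenase, at 227 and 116 CPM (-0.97), while the flow-responsive factors Klf2 (-0.01) and Klf4 (0.08) were short of the fold. The gCap gene Lpl was past the fold downward (-0.58), and Plvap stood at 789.8 and 1077 CPM (0.45 against 0.01 in gCap-like ECs).

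The 10 genes with the highest ratios in members, genes of the rule left out, were Bcl3, Hspa1a, Hspa1b, Atp8b1, Ppbp, Hgf, Sox4, Pf4, Nckap5 and Ddah1. Bcl3, a nuclear partner of NF-kB p50 and p52, stood at 15.8 CPM (12.3–19.97) in the control library and 51.9 CPM (46.1–58.2) in the metastatic library, which gives a log2 ratio of 1.72 (1.33 to 2.12) against 1.36 in gCap-like ECs. It belongs to 7 rCap genes which were picked in the study with these same libraries among its data, so their direction is not independent evidence. 4 of the 6 past the filter were past the fold upward, beside 4.22% of all genes, namely Bcl3, Adamts9 (0.77), Tmem252 (0.64) and Osmr (0.52). The kinase Pim3 (0.18) was not. Sox4, a transcription factor of the SoxC group, stood at 99.5 and 229 CPM (1.21 (1.05 to 1.37)), the aminophospholipid flippase Atp8b1 at 46.2 and 116 CPM (1.33), the cytoskeletal protein Nckap5 at 131 and 293 CPM (1.17) and Ddah1, which breaks down an inhibitor of nitric oxide synthesis, at 42.3 and 94.1 CPM (1.15). Ppbp (1.31) and Pf4 (1.19) are platelet chemokines and belong to the platelet transcripts summed above. Hspa1a and Hspa1b encode inducible Hsp70, and since the copies are nearly the same in sequence, a read of one could have been assigned to the other. Hspa1a stood at 46.0 CPM (39.8–52.8) in the control library and 127 CPM (118–137) in the metastatic library, which gives a log2 ratio of 1.47 (1.24 to 1.70), against 0.49 (0.34 to 0.64) in gCap-like ECs. Of 10 heat shock genes, 9 passed the filter, and these 2 were past the fold, with a list median of 0.37. Immediate early genes, which respond to cell isolation in many tissues, differed little, with a median of 0.05 over 11 genes and Atf3 (0.67) the 1 past the fold.

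Of 12 interferon genes, 8 passed the filter and 4 were past the fold upward beside 4.22% of all genes, against 0 of 8 in gCap-like ECs beside 2.75%, with medians of 0.50 and 0.24. Ifit1, an RNA-binding antiviral protein, stood at 58.5 CPM (51.6–66.2) in the control library and 94.3 CPM (86.5–103) in the metastatic library in members (0.69 (0.47 to 0.91)) and at 97.9 and 91.8 CPM in gCap-like ECs (-0.09 (-0.20 to 0.02)). Ifit3 (0.70), the ubiquitin-like Isg15 (0.67) and Rtp4 (0.54) were the others. The metastatic levels of Ifit1 were close in both classes, and the control level was the lower one in members. MHC class II genes, which present antigen, showed the reverse: 4 of 5 passed the filter, 0 were past the fold upward in members and 4 of 4 in gCap-like ECs, with medians of 0.35 and 0.77. Cd74, the invariant chain, stood at 275 CPM (259–291) in the control library and 385 CPM (369–401) in the metastatic library in members and at 118 and 337 CPM in gCap-like ECs. In the control library 1 member held 174 of the 1201 Cd74 UMIs. Under the stricter rule without Sema3c, which picks nearly the cells with at least 4 markers, the members' medians were 0.25 for the interferon and -0.07 for the MHC class II genes. Neither difference between the classes was tested. Among the other lists, Icam1, a leukocyte adhesion molecule, was the 1 of 3 NF-kB and adhesion genes past the filter that was past the fold, at 153 and 225 CPM (0.56), whereas Vcam1, E-selectin (Sele) and Selp stayed under the filter. None of 6 caveolae genes was past the fold, with a median of 0.02, and of the 4 vein genes past the filter Prss23 was the 1 past the fold, downward.

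**Figure D4:**
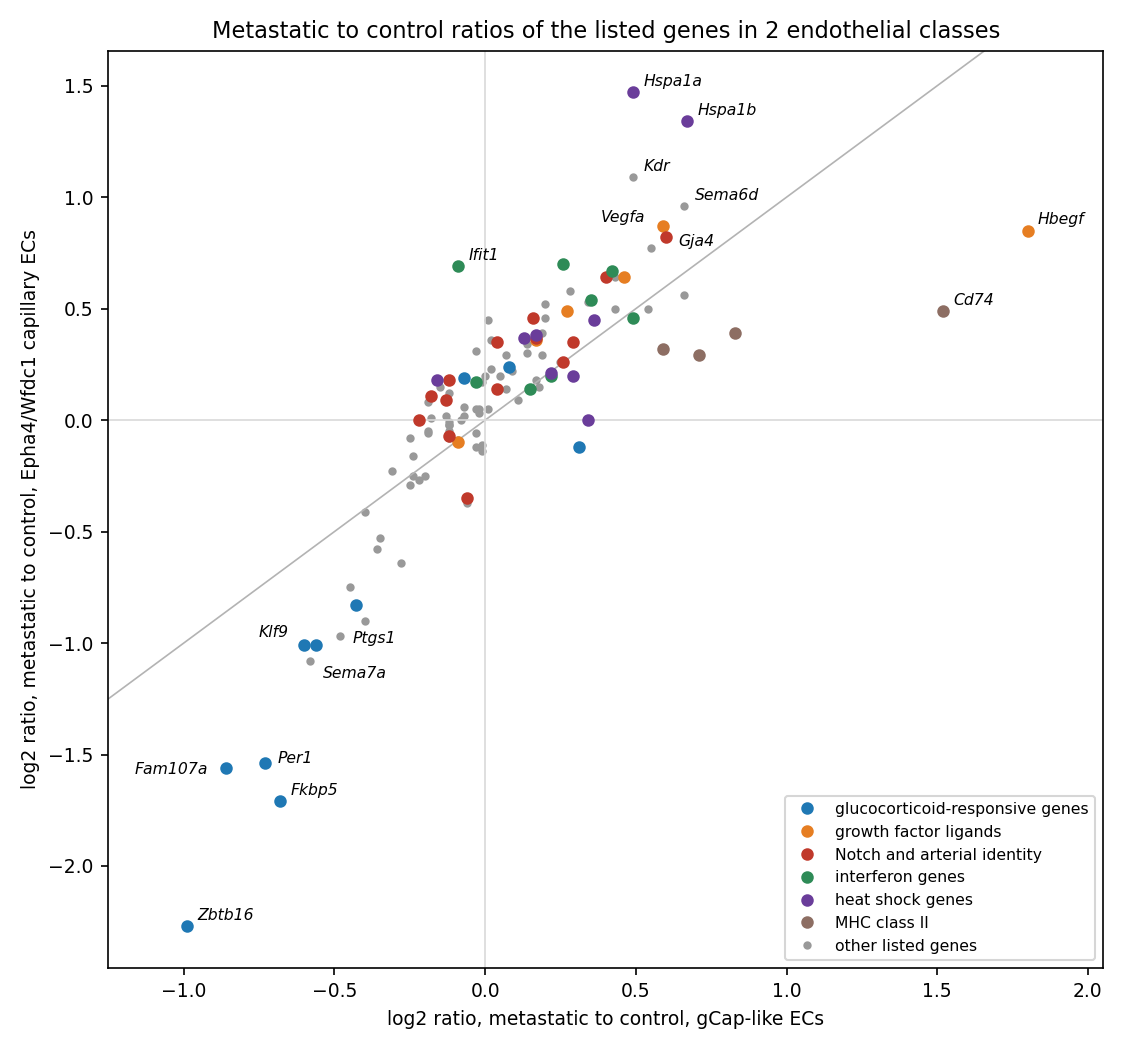
Log2 ratio of the metastatic to the control library in gCap-like ECs (horizontal axis) and in Epha4/Wfdc1 capillary ECs (vertical axis) for the 121 listed genes past the filter in both, colored by list, with equal ratios on the grey diagonal. Zbtb16 (-2.27 in members, -0.99 in gCap-like ECs) lies lowest, Hspa1a (1.47, 0.49) far above the diagonal, and Hbegf (0.85, 1.80) and Cd74 (0.49, 1.52) far below it.

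The 10 genes with the lowest ratios in members were Lyz1, Sftpb, Sftpa1, Slc34a2, Sftpc, Sftpd, Cxcl15, Cbr2, Lyz2 and Scd1, which are known from alveolar epithelium and macrophages and not from ECs. Sftpc, the surfactant protein C precursor, stood at 3943 CPM (3884–4002) in the control library and 76.2 CPM (69.2–83.8) in the metastatic library. With cells left out in which another cell type's genes held over 1% of UMIs, its log2 ratio went from -5.69 to -0.16 (-0.36 to 0.05), and that of Lyz1 went from -7.79 to -0.98 (-4.56 to 2.15). In Lyz1, 337 of the 343 control UMIs came from 1 member. Under the same setting Zbtb16 stood at -2.29, Fkbp5 at -1.71, Bcl3 at 1.69 and Hspa1a at 1.47, and the platelet genes Pf4 and Ppbp at 0.68 and 0.72.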

How the data were processed

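PECAM1-sorted lung cells of 1 control and 1 metastatic library were analysed. The deposited values are raw UMI counts per gene and barcode, which the authors made with Cell Ranger on mm10 (version 3.1.0 per the file headers). The annotation release is not given in the sources used here. The libraries held 67929614 and 64733724 UMIs. The members, gene lists and settings were chosen with earlier results of these data known. UMIs were summed per class and library, rule genes were left out of counts of genes, and levels are CPM with exact 95% Poisson intervals, shares carry exact Clopper-Pearson intervals, ratios of levels exact conditional binomial intervals, and ratios of shares intervals by the log method. With 1 library per group no test was run. Between libraries, the filter was 50 CPM in either library and 100 UMIs over both. Between classes, it was 50 CPM in either class and 100 UMIs over both classes, in each library. A gene was past the fold at a log2 ratio of 0.5 between libraries, or of 1 in both libraries between classes. Named genes were the list members and, among genes past the filter with ribosomal, mitochondrial and predicted genes passed over, the 10 highest and 10 lowest between libraries, 12 each against gCap-like ECs, 8 each against artery-like ECs, and 6 each of the difference between the members' and the gCap-like ratio. Lyve1 and Emcn, which the rule did not name, were chosen after their values were seen. Doublets were kept, and leaving out the highest doublet scores, 0.8% per 1000 cells, was 1 alternative. Other alternatives changed the limits on cells, the markers in the rule, the filter and the scaling, and 2 were chosen after seeing the data. The steps were tested on simulated data. Python 3.11.15, numpy 2.4.6, scipy 1.17.1, pandas 2.3.3, scanpy 1.11.5, matplotlib 3.10.9, R 4.3.3 and edgeR 4.0.16 (for its TMM factors) were used.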

Additional observations from a re-analysis of the deposited data

Results flagged for a closer look

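Some genes had metastatic to control ratios of opposite direction in the members and in another class, and with 1 library per group the difference was not tested. The surfactant genes Sftpa1, Sftpb and Sftpc had log2 ratios of -6.26, -6.4 and -5.69 in the members and of 0.71, 0.82 and 0.76 in gCap-like ECs, and 4 control members held nearly all of the Sftpc UMIs, 16880 of 17243. The serine protease gene Prss23 had a log2 ratio of -0.53 in members and 0.67 in artery-like ECs. The rCap gene Tmem252 had 0.64 in members and -0.77 in artery-like ECs. The artery-like class held 83 control and 65 metastatic cells, so its values rested on few UMIs.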

How the results depend on the processing

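Each group was 1 library, so leaving out a replicate was not possible, and depth set the rule through detection. No paired analysis was possible because each result comes from 1 library per group and from no test. TMM scaling moved no ratio of the members by more than 0.03 on the log2 scale. The count of genes past the fold downward against gCap-like ECs, 2 as reported, was 13 with at least 300 genes, 18 with at least 4 markers, 7 without Mal, 5 without Tubb2b, 7 without Epha4, 14 without Sema3c, 4 without Wfdc1, 15 with the rule on thinned cells, 1 with cells with RNA of another cell type left out and 25 without the CPM minimum. The count upward, 5 as reported, was 2 with at least 2 markers, 25 with at least 4, 10 without Epha4, 18 without Sema3c, 13 without Wfdc1, 13 on thinned cells and 15 without the CPM minimum. The share ratio of 1.39 was 1.19 with at least 2 markers, 1.19 without Epha4 and 1.24 without Wfdc1. Between the libraries, the counts of 162 upward and 134 downward were 248 and 202 without Wfdc1 and 439 and 315 without the CPM minimum. Against artery-like ECs, the count downward of 104 was 38 on thinned cells. Some ratios reversed. Clec1b against gCap-like ECs in the metastatic library was 0.063 with at least 1500 genes. Between the libraries, Hba-a1 and Hbb-bt were 0.53 and 0.50 with at least 2 markers. With at least 4 markers, Cxcl15 was 2.32 (-0.72 to 7.84), Mt2 -1.49 (-4.07 to 0.64), Pf4 -0.16, Ppbp -0.42 and Sftpc 0.074. Without Epha4, Mt1 was -0.15 and Mt2 -1.04. Without Sema3c, Cxcl15 was 2.30, Mt2 -1.51, Pf4 -0.19, Ppbp -0.44 and Sftpc 0.053. On thinned cells, Cxcl15 was 0.68, Lyz2 0.30 and Sftpc 0.22. The cause of these moves was not tested. The rule with at least 4 markers rested on 98 control members. The settings without a marker still asked for at least 3 of the others. Without Sema3c this gave 98 control and 116 metastatic cells, against 98 and 115 with at least 4 markers, so these 2 settings are not separate checks. Of the 18 list medians between the libraries, 11 left the range between the medians of their genes' interval bounds without Epha4, 10 without Sema3c, 8 with at least 4 markers, 8 on thinned cells and 6 without Wfdc1. Over the settings the glucocorticoid median lay between -1.07 and -0.85, the growth factor median between 0.32 and 0.75, the interferon median between 0.25 and 0.57, the arterial median between 0.15 and 0.33, the heat shock median between 0.23 and 0.39, and the MHC class II median between -0.07 and 0.91, which crossed 0 as did those of the large artery, gCap, vein, flow, guidance, caveolae and immediate early genes.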
